A study of Mus musculus with 6 samples.

Results

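The genes followed here are 10 markers of monocytes and macrophages (*Irf8*, *Ly6c2*, *F13a1*, *Ccr2*, *Lyz2*, *Ly86*, *Ctss*, *Cd68*, *Mpeg1* and *Tyrobp*), measured by RNA-seq in megakaryocyte–erythroid progenitors (MEPs). They were named as lineage genes with earlier results of these data known, were taken from the table by symbol, and all 10 were found among the 12101 listed genes. Every library came from MEPs sorted from adult double transgenic Nanog-tg mice, labelled as strain CD-1, in which a reverse tetracycline transactivator at *Rosa26* drives a tetO-*Nanog* cassette placed downstream of *Col1a1*. The transactivator is not restricted to blood cells. The dox-treated group (3 replicates) came from mice given doxycycline (dox) in the drinking water for 5 days, and the untreated group (3 replicates) from mice of the same genotype without dox. Neither the labels nor the methods say whether a replicate was 1 animal or a pool, so p-values measure the spread between these libraries, which may be partly technical.

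MEPs give rise to red blood cells and to platelet-forming megakaryocytes. Monocytes arise on the neighbouring branch, from granulocyte–macrophage progenitors, which sorting keeps apart from MEPs by their higher CD34 and CD16/32. The MEPs here came from the c-Kit+ Sca-1- fraction of marrow negative for a lineage cocktail, a gate meant to leave out mature blood cells. On that branch the transcription factors PU.1 and IRF8 drive the monocyte and dendritic cell fates, while C/EBP factors serve the granulocyte fate. Monocytes leaving the marrow carry Ly6C and the chemokine receptor CCR2, and the macrophages they form are rich in lysosomal enzymes and in adaptor proteins that couple surface receptors to kinases.

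Expression is given as CPM, reads per 1000000 reads of a normalized library size. Each library held between 11264803 and 16153600 reads on listed genes, and the limit that a count of 0 allows, 3 reads, lay between 0.193 and 0.273 CPM. Amplified reads are not independent molecules, so such limits hold for counting error alone. *Nanog* was at 1247 ± 218 CPM in the dox-treated group and at 0.624 ± 0.442 CPM in the untreated group (SD, n = 3 each), the order that the group labels imply. Dox-treated replicate 3 stood apart from the other libraries. Within its group it was the lowest library for 44.2% and the highest for 44.0% of all genes tested, and the lowest for 8 of the 10 monocyte genes, so counts without it are given beside the main results. In bulk samples such as these, a smaller share of cells of a type and less RNA per cell of that type cannot be told apart.

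Dox-treated MEPs held less RNA of 4 of the 10 genes, among them the transcription factor and the surface antigen by which monocytes are recognized. *Ly6c2*, *F13a1*, *Irf8* and *Mpeg1* fell, with log2 fold changes between -3.31 and -2.10. No gene of the 10 rose. *Ccr2*, *Ly86* and *Tyrobp* had lower values in every dox-treated than in every untreated library but did not pass the test. The libraries of the 2 groups overlapped for *Lyz2*, *Ctss* and *Cd68*. The test was limma on the log2 values of 12088 genes, with Benjamini–Hochberg adjustment over all of them and a threshold of 0.05. By this test 4 of 10 were lower and 0 of 10 higher, beside 3.18% of all genes tested that were lower and 4.59% that were higher. At an unadjusted p under 0.05, 7 were lower (13.6% of all genes tested) and 0 higher (15.6%). The groups did not overlap, with the dox-treated libraries lower, for 7 of 10 genes (18.2% of all genes tested) and with the dox-treated libraries higher for 0 of 10 (17.7% of all genes tested). The median log2 fold change of the 10 genes was -1.47, and that of all genes tested was -0.03. The count of lower genes was 4 without dox-treated replicate 3, where the share of all genes called was larger, 14% lower and 14.9% higher. It was 1 without dox-treated replicate 1 or without untreated replicate 3, 2 without dox-treated replicate 2 or without untreated replicate 1, and 5 without untreated replicate 2. The share of all genes called lower in these fits was 0.662% and 0.753% without dox-treated replicates 1 and 2, and 0.654%, 1.04% and 0.298% without untreated replicates 1, 2 and 3.

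**Figure D1:**
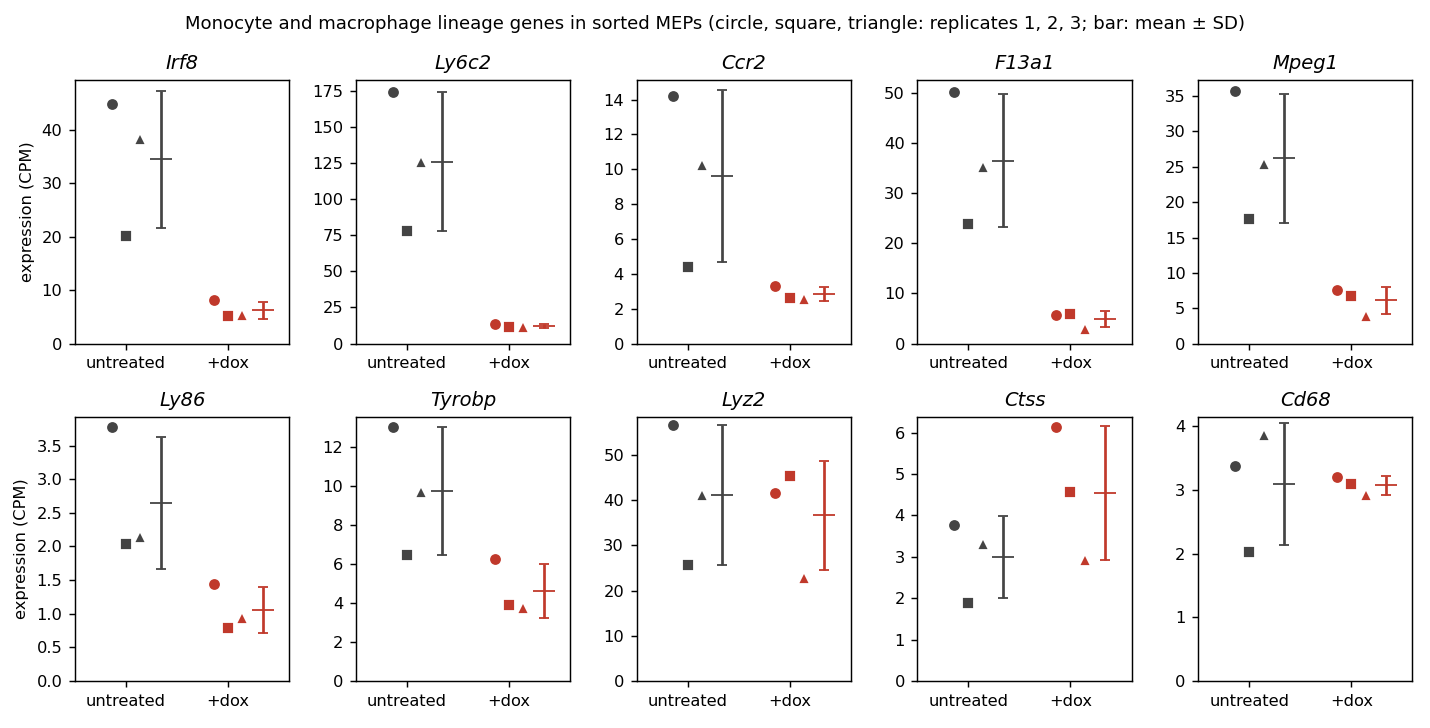
Expression in CPM (vertical axes, linear, starting at 0) of the 10 genes in the 3 untreated (grey) and 3 dox-treated (red) libraries; circles, squares and triangles are replicates 1, 2 and 3, and bars are mean ± SD. In the first 7 panels every red point lies under every grey point, and in the panels of *Lyz2*, *Ctss* and *Cd68* the groups overlap.

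The transcription factor of the set was *Irf8* (ENSMUSG00000041515), which encodes interferon regulatory factor 8, required for monocyte and dendritic cell development. It lies on chromosome 8 from 123260258 to 123280594 on the plus strand of NCBIM37, with 7055 exonic bases. *Irf8* had 8.06, 5.25 and 5.42 CPM in dox-treated replicates 1, 2 and 3, and 44.9, 20.2 and 38.3 CPM in untreated replicates 1, 2 and 3, from 109, 70 and 84 reads against 577, 273 and 420. The groups did not overlap, and the lowest untreated library was 2.51 times the highest dox-treated one. The mean fell 5.52-fold, from 34.5 ± 12.8 CPM to 6.24 ± 1.58 CPM (SD, n = 3 each), and the log2 fold change was -2.41 (95% interval -3.25 to -1.58, standard error 0.34, adjusted p = 0.018, limma). Its limma adjusted p was 0.022 without dox-treated replicate 3 and 0.019 without untreated replicate 2, and between 0.050 and 0.078 without any of the other 4 libraries, where the call was lost. The annotated gene *Gm20388* spans *Irf8* on the same strand but shares no exon bases with it.

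Of the other 16 tested transcription factors of a monocyte list, 1 was lower and 0 were higher (limma), with a median log2 fold change of 0.17. *Id2*, which encodes an inhibitor of basic helix-loop-helix factors, fell from 6.26 ± 1.72 to 1.596 ± 0.268 CPM (SD, n = 3 each; log2 fold change -1.95, adjusted p = 0.015, limma). *Spi1*, listed under its older name *Sfpi1*, encodes PU.1, the partner of IRF8 on composite DNA sites. It had 32.5, 36.4 and 17.3 CPM with dox and 33.6, 15.999 and 26.5 CPM without, so that the groups overlapped (log2 fold change 0.17). *Cebpa*, which encodes C/EBPα of early granulocyte–macrophage progenitors, had 15.0, 8.37 and 8.76 CPM with dox and 41.9, 19.1 and 36.8 CPM without. Its groups did not overlap, but its adjusted p was 0.058 (limma; log2 fold change -1.58). *Cebpb*, a C/EBP factor of mature myeloid cells, had a log2 fold change of -0.80 and the same adjusted p of 0.058 (limma). With voom weights *Cebpa* (adjusted p = 0.044) and *Cebpb* (0.048) were both called lower (limma). With *Irf8* counted in, the list had 2 lower genes, 4 with voom weights (570 of all 12088 genes), 3 without dox-treated replicate 3, and 0 without dox-treated replicate 1 or 2 or untreated replicate 3.

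The surface and secreted proteins of the monocyte include *Ly6c2*, *Ccr2* and *F13a1*. *Ly6c2* (ENSMUSG00000022584) encodes the Ly6C antigen of inflammatory monocytes and lies on chromosome 15 from 74938590 to 74942114 on the minus strand of NCBIM37, with 796 exonic bases. Dox-treated replicates 1, 2 and 3 had 13.5, 11.5 and 11.4 CPM of *Ly6c2*, and untreated replicates 1, 2 and 3 had 174, 78.0 and 126 CPM. The dox-treated libraries lay close together and far below the untreated ones. Its mean with dox, 12.1 ± 1.19 CPM, was 10.4-fold lower than the 126.0 ± 48.2 CPM of the untreated group (SD, n = 3 each), and the log2 fold change was -3.31 (95% interval -4.03 to -2.58, standard error 0.30, adjusted p = 0.0083, limma). It was under the threshold in 17 of 17 alternative fits, with limma adjusted p-values between 0.00090 and 0.044. The gene behind these reads is uncertain. Of the 36-base windows of the *Ly6c2* transcript, 48.4% also occur in transcripts of *Ly6c1* or *Ly6a*, and the transcript is 97.7% identical to that of *Ly6c1*, neither of which is among the listed genes. Reads of *Ly6c1* could therefore be counted as *Ly6c2*.

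*F13a1* (ENSMUSG00000039109; chromosome 13, 36959047 to 37142113, minus strand, 6443 exonic bases) encodes the A subunit of coagulation factor XIII, made by monocytes and macrophages and also by megakaryocytes. It had 5.63, 5.84 and 2.98 CPM in dox-treated replicates 1, 2 and 3 and 50.2, 23.8 and 35.3 CPM in untreated replicates 1, 2 and 3. Every untreated library was above every dox-treated one. The mean fell from 36.4 ± 13.2 to 4.82 ± 1.59 CPM (SD, n = 3 each), which is 7.56-fold, with a log2 fold change of -2.92 (95% interval -3.83 to -2.003, standard error 0.37, adjusted p = 0.015, limma). The limma adjusted p was 0.050 without dox-treated replicate 1, just over the threshold, and 0.066 without untreated replicate 3. Since *F13a1* is also a megakaryocyte gene, the megakaryocyte list is given beside it, and the part of those cells in its fall was not tested. Of the list's 13 tested genes 1 was lower (*Vwf*, log2 fold change -1.31, adjusted p = 0.018, limma) and 3 were higher (*Gp9*, 1.28, *Selp*, 1.19, and *Gp1ba*, 0.90). Of the genes that did not pass the test, 5 are named after their values were seen. *Gp1bb* (-1.32) and *Pf4* (-0.998) had negative log2 fold changes, and *Itga2b* (2.52), *Itgb3* (1.72) and *Fli1* (1.04) had positive ones. At an unadjusted p under 0.05, 3 of the list were lower (13.6% of all genes) and 7 higher (15.6%). The median log2 fold change of the list was 0.49. Without dox-treated replicate 3 the list had 2 lower and 5 higher (14% and 14.9% of all genes), and with any other library left out at most 1 was higher. With voom weights *Selp* (adjusted p = 0.065) and *Gp1ba* (0.051) were not called, while *Itga2b* (0.043) and *Gp5* (0.0495) were called higher (limma). The list then still had 3 higher and 1 lower, beside 615 and 570 of all 12088 genes.

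*Ccr2* (ENSMUSG00000049103; chromosome 9, 124016689 to 124028296, plus strand) encodes the receptor for CCL2 through which monocytes leave the marrow. It had 3.28, 2.64 and 2.53 CPM with dox, from 44, 35 and 39 reads, and 14.2, 4.40 and 10.2 CPM without, from 182, 59 and 112 reads. The groups did not overlap, but untreated replicate 2 was nearer to the dox-treated libraries than to the other untreated ones. The log2 fold change was -1.62 (95% interval -2.68 to -0.56, adjusted p = 0.075, limma), and without untreated replicate 2 it was -2.11 with an adjusted p of 0.023 (limma).

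Among 27 tested receptors of a monocyte and macrophage surface list, none of them one of the 10 genes, 5 were lower and 3 higher (limma), with a median log2 fold change of -0.39. *Clec4a2*, a C-type lectin gene of dendritic cells and monocytes, fell from 8.76 ± 2.65 to 1.59 ± 0.0836 CPM (SD, n = 3 each; log2 fold change -2.42, adjusted p = 0.010, limma). *Cx3cr1*, the fractalkine receptor gene, fell by 2.20 on the log2 scale (adjusted p = 0.018, limma), with 4 to 10 reads per dox-treated library. It reached the filter only through the untreated libraries. *Csf1r*, the receptor gene for macrophage colony-stimulating factor, fell from 12.9 ± 2.93 to 4.69 ± 0.969 CPM (SD, n = 3 each; -1.45, adjusted p = 0.024, limma). The other genes of the list that fell were *Clec12a* (log2 fold change -2.55) and *Lair1* (-1.84), both inhibitory receptors, and are named after their values were seen. *Cd36*, a fatty acid and oxidized lipid receptor that erythroid and megakaryocytic cells also carry, rose from 6.54 ± 0.943 to 26.3 ± 7.09 CPM (SD, n = 3 each; log2 fold change 1.98, adjusted p = 0.012, limma). *Lilrb4* (4.77) and *Ms4a6b* (2.53) also rose, and are likewise named after their values were seen. *Lilrb4* had 44.8, 61.4 and 9.85 CPM in dox-treated replicates 1, 2 and 3, and its adjusted p was 0.11 with voom weights (limma). With those weights the list had 6 lower and 4 higher, beside 570 and 615 of all 12088 genes. The counts of the list were 7 lower and 5 higher without dox-treated replicate 3 (14% and 14.9% of all genes), and 1 or 2 lower and at most 1 higher without any other library.

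The windows of 250 bases before the annotated starts of *Irf8*, which fell, *Ly6c2*, which fell furthest of the 10, and *Ctss*, which did not fall, are printed for comparison, 5′ to 3′ on the strand of the gene, from RefSeq on GRCm38.p6. Capitals mark matches on the printed strand to GAGGAAGT (PU.1), its shorter core GAGGAA, or GAAANNGAA (interferon-stimulated response element).
Irf8 (chr8:120736108-120736357, plus strand): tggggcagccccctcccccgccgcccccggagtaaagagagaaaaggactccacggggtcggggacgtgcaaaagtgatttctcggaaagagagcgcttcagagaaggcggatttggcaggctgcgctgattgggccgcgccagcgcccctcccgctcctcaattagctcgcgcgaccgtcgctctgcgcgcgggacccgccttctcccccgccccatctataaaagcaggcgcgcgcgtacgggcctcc
Ly6c2 (chr15:75111972-75112221, minus strand): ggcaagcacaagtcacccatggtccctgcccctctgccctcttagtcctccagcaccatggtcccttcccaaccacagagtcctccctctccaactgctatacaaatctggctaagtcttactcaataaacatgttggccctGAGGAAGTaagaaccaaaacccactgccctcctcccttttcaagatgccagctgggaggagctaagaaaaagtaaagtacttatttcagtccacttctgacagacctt
Ctss (chr3:95526536-95526785, plus strand): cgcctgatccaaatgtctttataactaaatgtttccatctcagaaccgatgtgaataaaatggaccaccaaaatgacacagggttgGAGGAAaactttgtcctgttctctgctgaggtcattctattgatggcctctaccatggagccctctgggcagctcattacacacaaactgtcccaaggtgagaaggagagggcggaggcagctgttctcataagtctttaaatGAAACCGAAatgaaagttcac
The 10 genes matched 12 promoter windows of 9 genes, each of 300 bases with 50 after the start. On either strand GAGGAAGT occurred in windows of *Ly6c2*, *F13a1* and *Ctss*, 3 of 9 genes, beside 3.20% of all 32851 promoters. By windows it was 4 of 12, but both *Ly6c2* windows overlap and hold the same sites. In the 250 bases before the start alone, *Ly6c2* was the 1 gene of 9 that held it (2.44% of all promoters). In *Ly6c2* it lay 108 bases before the first start. GAGGAA, which is part of that motif, occurred in windows of 4 of 9 genes (28.3% of all promoters). The composite sequence of PU.1 and IRF factors, GGAANNGAA, occurred in windows of *Ccr2*, *Ctss* and *Cd68* (8.24% of all promoters), and GAAANNGAA in those of *Ccr2*, *Ly86* and *Ctss* (8.56%). TTGCNNAA (C/EBP) occurred in that of *Cd68* (10.8%), and AGATAA, the core read by GATA factors, in those of *Ccr2* and *Mpeg1* (11.2%). The windows of *Irf8* and *Lyz2* held none of these letters. Genes that fell and genes whose groups overlapped both held the PU.1 letters. Matches are descriptions of letters and not of bound sites.

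The adaptor and receptor partners of the set were *Tyrobp* and *Ly86*. *Tyrobp* (ENSMUSG00000030579; chromosome 7, 31198807 to 31202596, plus strand, 564 exonic bases) encodes DAP12, the adaptor through which TREM receptors and other myeloid receptors signal to the kinase SYK. It had 6.22, 3.91 and 3.75 CPM in dox-treated and 13.02, 6.47 and 9.69 CPM in untreated replicates 1, 2 and 3. The groups were apart by the narrow gap between dox-treated replicate 1 and untreated replicate 2. The log2 fold change of -1.05 (95% interval -1.83 to -0.27) had an adjusted p of 0.095 (limma). In the list of its pathway 2 of 15 tested genes were lower and 1 higher (limma), with a median log2 fold change of 0.29. Those lower, *Trem3* (-2.97) and *Clec5a* (-2.85), encode receptors that pair with DAP12, and each had 10 to 19 reads per dox-treated library. The gene that was higher, *Lyn* (1.32, adjusted p = 0.016, limma), encodes a Src-family kinase used in many blood lineages, mast cells among them. *Fcer1g*, the other adaptor of this kind, had 12.4, 9.79 and 4.14 CPM with dox and 7.43, 5.58 and 6.60 CPM without, so that its groups overlapped. The pathway had 2 lower and 6 higher without dox-treated replicate 3 (14% and 14.9% of all genes), and 0 lower without dox-treated replicate 1 or 2 or untreated replicate 1 or 3.

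*Ly86* (ENSMUSG00000021423; chromosome 13, 37437214 to 37510905, plus strand, 997 exonic bases) encodes MD-1, the secreted partner of the toll-like receptor homologue CD180. Before correction for length it had the lowest mean CPM of the 10 genes in both groups, with 1.44, 0.78 and 0.93 CPM in dox-treated replicates 1, 2 and 3, from 19, 10 and 14 reads. The untreated replicates 1, 2 and 3 had 3.77, 2.03 and 2.14 CPM, from 48, 27 and 23 reads. The groups did not overlap, and the log2 fold change was -1.32 (95% interval -2.13 to -0.52, adjusted p = 0.065, limma). *Cd180* itself had 5.04, 4.28 and 2.79 CPM with dox and 3.15, 0.924 and 3.50 CPM without, with overlap, a log2 fold change of 0.85 and an adjusted p of 0.34 (limma). Of the 8 tested genes of the toll-like receptor and LY86 list, 0 were lower and 0 higher (limma), and at an unadjusted p under 0.05 there was 1 in each direction, near the 13.6% and 15.6% of all genes. Their median log2 fold change was 0.51. *Cd14*, the lipopolysaccharide co-receptor gene, was the nearest to the threshold (-1.07, adjusted p = 0.054, limma).

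The remaining genes encode proteins with which phagocytes kill and digest what they take up. *Mpeg1* (ENSMUSG00000046805; chromosome 19, 12535269 to 12539774, plus strand, 4335 exonic bases) encodes perforin-2, a pore-forming protein of the phagosome. It had 7.62, 6.74 and 3.95 CPM with dox and 35.7, 17.6 and 25.3 CPM without. The untreated libraries were all above the dox-treated ones. The mean fell from 26.2 ± 9.12 to 6.10 ± 1.92 CPM (SD, n = 3 each), with a log2 fold change of -2.10 (95% interval -2.96 to -1.24, standard error 0.35, adjusted p = 0.028, limma). Without dox-treated replicate 1 or 2 the adjusted p was 0.069 or 0.086, and without untreated replicate 1 or 3 it was 0.076 or 0.095 (limma).

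*Lyz2* (ENSMUSG00000069516; chromosome 10, 116714390 to 116719377, minus strand, 1313 exonic bases) encodes lysozyme M, made by monocytes, macrophages and neutrophils. It had 41.7, 45.4 and 22.8 CPM in dox-treated and 56.7, 25.7 and 41.1 CPM in untreated replicates 1, 2 and 3. The groups overlapped throughout, and the log2 fold change was -0.16 with a 95% interval from -1.10 to 0.78 (adjusted p = 0.81, limma). A fall as large as that of *Irf8* lies outside this interval. Of the 36-base windows of its transcript, 27.4% also occur in that of *Lyz1*, which is not among the listed genes, so its reads are uncertain between the pair.

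*Cd68* (ENSMUSG00000018774; chromosome 11, 69477715 to 69479655, minus strand) encodes macrosialin, a membrane glycoprotein of late endosomes and lysosomes. It had 3.20, 3.09 and 2.92 CPM with dox and 3.38, 2.03 and 3.87 CPM without, with a log2 fold change of 0.04 (95% interval -0.57 to 0.65, adjusted p = 0.93, limma). *Ctss* (ENSMUSG00000038642; chromosome 3, 95330708 to 95360325, plus strand) encodes cathepsin S, the protease that trims the invariant chain of class II molecules. It had 6.15, 4.58 and 2.92 CPM with dox and 3.77, 1.88 and 3.32 CPM without. Dox-treated replicates 1 and 2 were above the untreated libraries and dox-treated replicate 3 was within their range (log2 fold change 0.60, 95% interval -0.30 to 1.505, adjusted p = 0.32, limma).

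Other genes of the phagocyte machinery are given by list. Of 24 tested lysosomal and phagosomal genes, without those already named among the 10, 1 was lower and 0 were higher (limma), with a median log2 fold change of 0.00. The gene that was lower was *Scpep1*, a lysosomal carboxypeptidase gene (-0.83, adjusted p = 0.016, limma). *Ctsb*, the cathepsin B gene, had 159 ± 5.94 CPM with dox and 199 ± 3.28 CPM without (SD, n = 3 each; -0.32, adjusted p = 0.086, limma). Of 6 genes of the phagocyte NADPH oxidase, which makes superoxide in the phagosome, 2 were lower (*Ncf1*, -2.06, and *Ncf4*, -1.49, both cytosolic subunits) and 0 were higher (limma). *Cybb*, its membrane-bound catalytic subunit, had 7.03, 7.11 and 5.29 CPM with dox and 27.3, 9.87 and 16.8 CPM without (-1.36, adjusted p = 0.080, limma). Without dox-treated replicate 3 the lysosomal list had 3 lower and 4 higher of 24, near the 14% and 14.9% of all genes in that fit, and the oxidase list 2 lower, and without any other single library both had 0 in each direction.

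**Figure D2:**
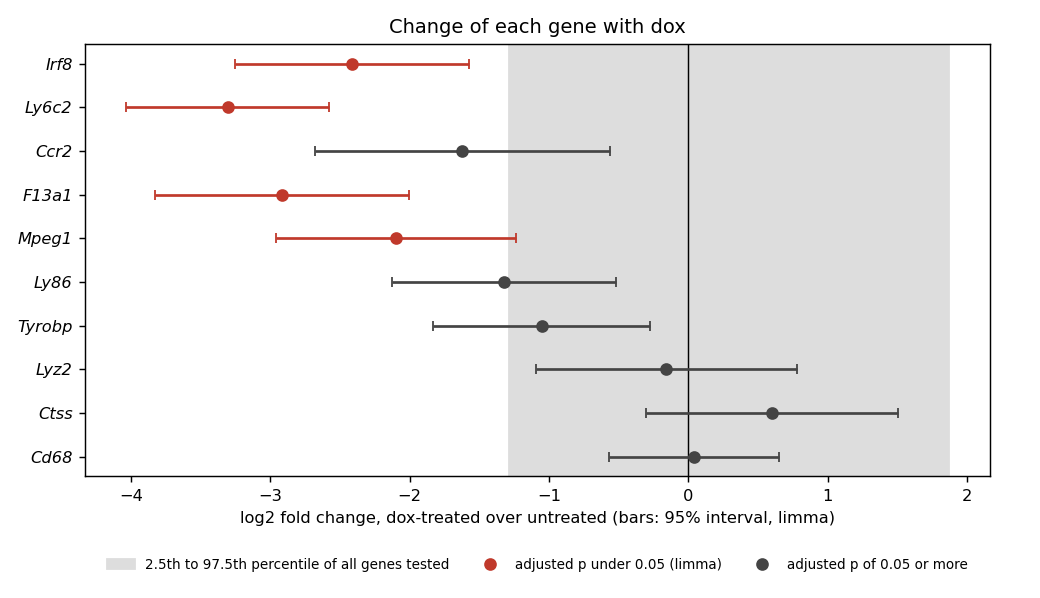
Log2 fold change of each of the 10 genes, dox-treated over untreated (horizontal axis), with 95% intervals from limma (3 libraries against 3); red marks an adjusted p under 0.05, and the grey band spans the central 95% of all 12088 genes tested. The 4 red points lie left of the band, which starts at -1.29, and *Lyz2*, *Ctss* and *Cd68* lie inside it.

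The order of the genes by level, in CPM per kb of exon so that lengths are taken into account, differed between the groups. The length used joins all annotated exons of a gene, and the order within a group depends on that choice. *Irf8* had 7055 exonic bases but 2847 in its longest coding transcript, and *F13a1* 6443 but 3877. In untreated MEPs *Ly6c2* was the highest at 158.3 ± 60.6 CPM per kb (SD, n = 3) and did not overlap with *Lyz2* at 31.3 ± 11.8. *Tyrobp* at 17.2 ± 5.81 overlapped with *Lyz2* but not with *Mpeg1* at 6.05 ± 2.10. *F13a1* (5.65), *Irf8* (4.88), *Ly86* (2.66), *Cd68* (2.46), *Ctss* (2.20) and *Ccr2* (1.503) followed, and each of these overlapped with its neighbour. In dox-treated MEPs *Lyz2* at 27.9 ± 9.22 CPM per kb was above *Ly6c2* at 15.2 ± 1.4996 (SD, n = 3 each) with no overlap. *Tyrobp* (8.21), *Ctss* (3.35) and *Cd68* (2.44) came next, and the others were between 0.44 and 1.41 CPM per kb.

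Ratios of reads to those of *Irf8* in the same library restate these changes relative to a gene that fell. They were chosen after the values were seen, have no test and add no support to the changes. *Lyz2* had 1.26, 1.27 and 1.07 times the reads of *Irf8* in untreated replicates 1, 2 and 3, and 5.17, 8.65 and 4.21 times in dox-treated replicates 1, 2 and 3. The reads of *Ctss* were 0.084, 0.093 and 0.087 times those of *Irf8* without dox and 0.763, 0.872 and 0.538 times with dox. The ratios of *Lyz2*, *Ctss* and *Cd68* were narrow in the untreated libraries, whose *Irf8* levels differed, and were higher in every dox-treated library. *Ly6c2* had 3.88, 3.86 and 3.28 times the reads of *Irf8* without dox and 1.68, 2.19 and 2.10 times with it. *F13a1* and *Mpeg1* kept ratios to *Irf8* that overlapped between the groups.

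**Figure D3:**
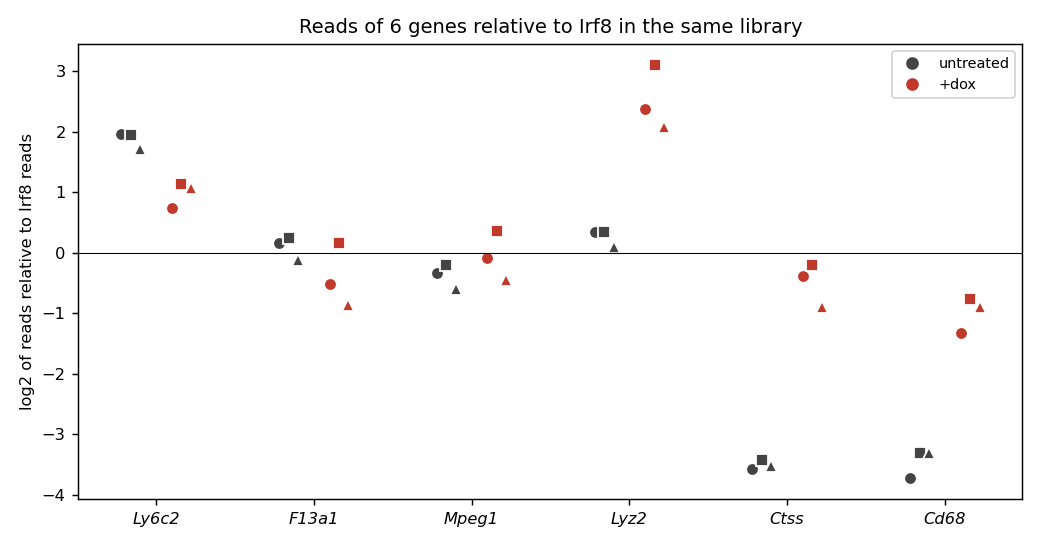
Log2 of the reads of 6 genes relative to those of *Irf8* in the same library (vertical axis), for the untreated (grey) and dox-treated (red) libraries; circles, squares and triangles are replicates 1, 2 and 3. Red points lie above grey points for *Lyz2*, *Ctss* and *Cd68*, below them for *Ly6c2*, and among them for *F13a1* and *Mpeg1*.

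The order of libraries within a group was similar for many of the 10 genes, as a description with no test. Untreated replicate 2 had the lowest untreated value for 10 of 10 genes, while it was the lowest untreated library for 37.1% of all genes tested. Untreated replicate 1 had the highest untreated value for 9 of 10 (32.9% of all genes tested), *Cd68* being the exception, and dox-treated replicate 1 the highest dox-treated value for 8 of 10 (29.0%), with *F13a1* and *Lyz2* highest in dox-treated replicate 2. *Irf8* and *Ly86* were lowest in dox-treated replicate 2, and the other 8 in dox-treated replicate 3. The summed level of the 10 genes was 399.8, 181.7 and 294.3 CPM in untreated replicates 1, 2 and 3 and 96.5, 89.3 and 59.3 CPM in dox-treated replicates 1, 2 and 3.

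Markers of other blood cell types were measured beside the set. Mature cells of these types should be removed by the lineage cocktail and the c-Kit gate, although several of the genes are also expressed in immature progenitors. Of 18 neutrophil and granulocyte genes 12 were lower (3.18% of all genes tested) and 0 higher (4.59%, limma), with a median log2 fold change of -2.62. *Fcnb*, the ficolin B gene (-3.96), *Elane*, the neutrophil elastase gene (-3.22), and *Cebpe*, a factor of granule maturation (-2.85) had the smallest p-values of the list. The summed level of the 18 was between 2598 and 5921 CPM in untreated and between 547 and 821 CPM in dox-treated libraries, and no marker of this list was missing from the table. The count of lower genes was 13 without dox-treated replicate 3 (14% of all genes) and 10 without dox-treated replicate 2 (0.753%). It was 4 without dox-treated replicate 1 (0.662%), and 5, 8 and 1 without untreated replicates 1, 2 and 3 (0.654%, 1.04% and 0.298%). The 10 monocyte genes summed to 6.75%, 6.995% and 6.99% of the neutrophil sum in untreated replicates 1, 2 and 3, and to 12.1%, 10.9% and 10.8% in dox-treated replicates 1, 2 and 3. These shares depend on *Lyz2*, which neutrophils also make. It had 41.7, 45.4 and 22.8 of the 96.5, 89.3 and 59.3 CPM of the 10 genes in dox-treated replicates 1, 2 and 3. In untreated replicates 1, 2 and 3 it had 56.7, 25.7 and 41.1 of 399.8, 181.7 and 294.3 CPM. The shares without *Lyz2* were not computed. The part of neutrophil precursors or their RNA in the falls of *Irf8*, *Ly6c2*, *F13a1* and *Mpeg1* was not tested.

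Macrophages of the erythroblastic island and of resident tissue were represented by 13 tested genes, with a median log2 fold change of 0.79. Of these 2 were higher and 1 lower (limma). *Hmox1*, the haem oxygenase gene, rose from 0.893 ± 0.0939 to 7.38 ± 1.94 CPM (SD, n = 3 each; 3.02, adjusted p = 0.0044, limma), and *C1qc*, a complement gene, from 0.552 ± 0.0619 to 1.497 ± 0.157 CPM (1.44, adjusted p = 0.00965, limma). *C1qc* rests on 6 or 7 reads per untreated and 19 to 22 per dox-treated library, and its adjusted p was 0.066 with voom weights (limma), which left 1 gene of the list higher. With 1 library left out 2 or 3 were higher and 0 to 2 lower. *Vcam1*, the adhesion molecule gene by which island macrophages hold erythroblasts, fell (-2.85, adjusted p = 0.028, limma). The summed level of the list was between 205.1 and 327.5 CPM with dox and between 238.6 and 383.1 CPM without, so the sums overlapped, but *Slc40a1* and *Apoe* made up most of them. At an unadjusted p under 0.05, 6 of the 13 genes were higher (15.6% of all genes) and 1 lower (13.6%), and 5 did not overlap with the dox-treated libraries higher (17.7%). *Hmox1*, *C1qc* and, among the 6, *Mrc1* were under 1 CPM in every untreated library. They reached the filter, 1 CPM in 3 libraries, only through the dox-treated libraries, so these counts add no support for a rise. *Cd5l*, a macrophage gene too low for the filter, had 13, 13 and 19 reads in dox-treated and 2, 0 and 0 reads in untreated replicates 1, 2 and 3. *Mertk* and *Timd4*, which mark resident macrophages, were not listed, and *Adgre1*, the F4/80 gene, had 1.23 ± 0.290 CPM with dox and 1.23 ± 0.268 CPM without (SD, n = 3 each).

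Dendritic cell genes, which share *Irf8*, had 2 lower and 0 higher of 8 tested (*H2-Ab1*, -1.31, and *Zbtb46*, -1.07). *Xcr1*, *Clec9a* and *Siglech*, which define dendritic cell subsets, were not listed. Of 10 lymphoid genes 1 was lower (*Nkg7*, -2.12) and 0 higher. Mast cell and basophil genes had 3 higher and 0 lower of 8 (*Cpa3*, 2.93, *Ms4a2*, 2.76, and *Slc18a2*, 1.497), and erythroid genes 3 lower and 0 higher of 20 (*Ermap*, -0.77, *Epb4.2*, -1.58, and *Ank1*, -0.71). Of the 8 mast cell and basophil genes 3 had negative log2 fold changes. The lowest, named after its value was seen, was that of *Gzmb* (-3.42, adjusted p = 0.053, limma). Without dox-treated replicate 3 the erythroid count was 10 lower and 1 higher, the dendritic count 3 and 1, and the mast cell count 1 lower and 4 higher, in a fit that called 14% of all genes lower and 14.9% higher. With another library left out, the lower counts of the erythroid, dendritic and lymphoid lists went down to 0 and the higher count of the mast cell list to 1. The part of these cell types in the falls of the monocyte genes was not tested. A list kept for the sorting gate held *Kit*, *Cd34*, *Fcgr2b* and *Fcgr3*, and also *Il7r*, which was not among the stains of this sort. It also held *Ly6a*, the Sca-1 gene, which was not listed. Of the 5 listed genes 0 were lower and 0 higher (limma), with *Fcgr3* lower and *Cd34* higher at an unadjusted p under 0.05, a threshold that 13.6% of all genes passed as lower and 15.6% as higher. Without dox-treated replicate 3, 0 were lower and 1 higher (14% and 14.9% of all genes). *Fcgr3*, which encodes CD16, had 11.3, 10.2 and 6.13 CPM with dox and 28.0, 11.4 and 19.1 CPM without, so that it was lower in every dox-treated library (-1.03, adjusted p = 0.15, limma). *Cd34* had 171.7, 129.2 and 62.8 CPM with dox and 57.7, 23.8 and 48.2 CPM without, so that it was higher in every dox-treated library (1.47, adjusted p = 0.11, limma). *Kit* was lower in every dox-treated library (-0.39, adjusted p = 0.19, limma).

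**Figure D4:**
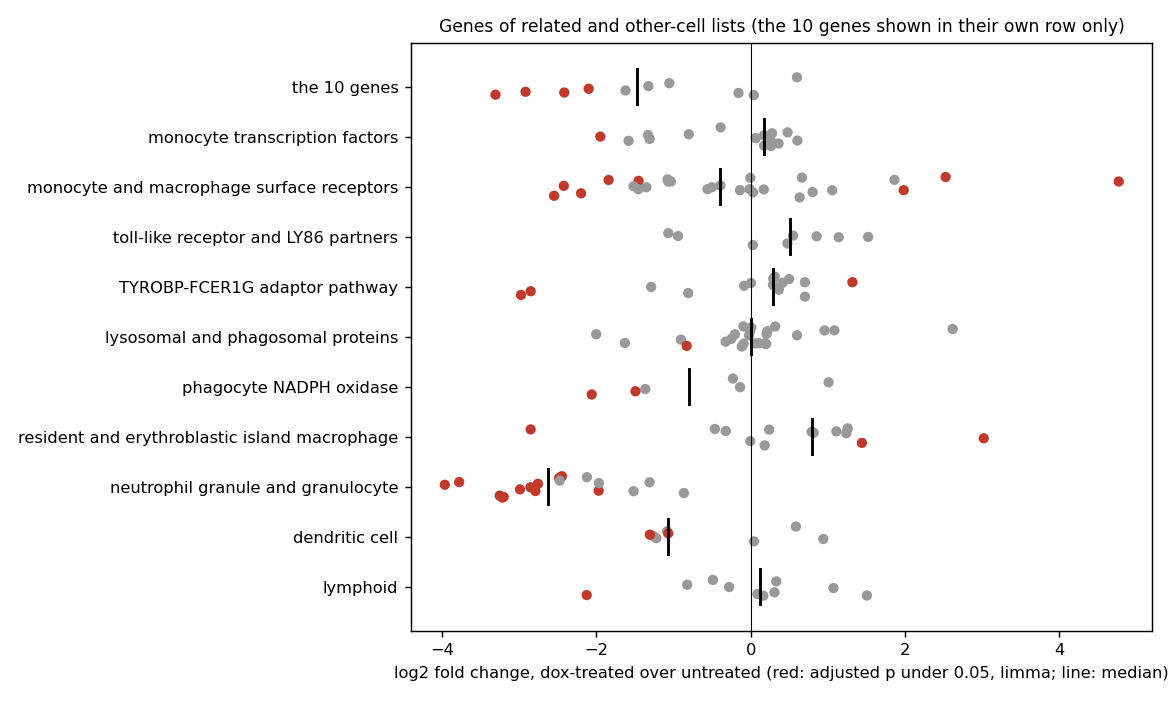
Log2 fold change, dox-treated over untreated (horizontal axis), of each tested gene of the set and of the related and other-cell lists; red points have an adjusted p under 0.05 (limma), and black lines are medians. The neutrophil list lies furthest left, with a median of -2.62, and the transcription factors and lysosomal genes other than the set centre near 0, with medians of 0.17 and 0.00.

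**Figure D5:**
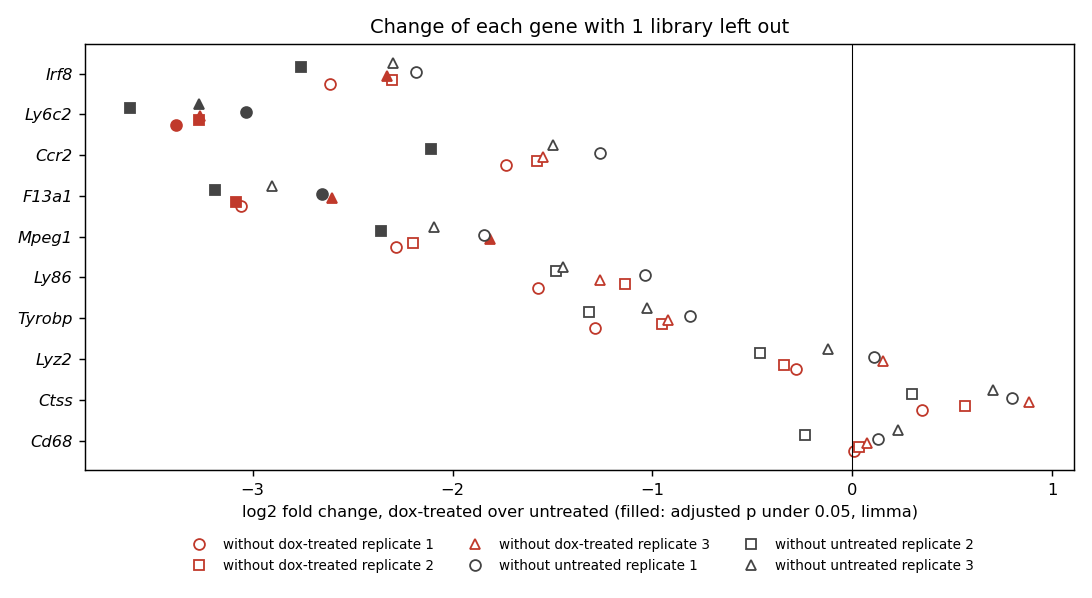
Log2 fold change of each of the 10 genes (horizontal axis) with 1 library left out, 6 points per gene; filled points have an adjusted p under 0.05 (limma). All 6 points of *Ly6c2* are filled, 2 of *Irf8*, 4 of *F13a1* and 2 of *Mpeg1*, and the points of *Lyz2* and *Cd68* fall on both sides of 0.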

How the data were processed

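RNA of sorted MEPs was sequenced as 3 dox-treated and 3 untreated libraries. Adapters were trimmed by the authors (Cutadapt), who then mapped and quantified with RSEM against Ensembl transcripts of NCBIM37, and normalized the result by limma. The deposited values are log2 CPM with 0.5 reads added, for 12101 genes, unpooled. The use of strand in counting, the filter on genes and the source of the normalized library sizes are not given in the sources used here. The values fell on whole reads (within 1e-06 reads) for 100% of genes in every library. These recovered reads served for depth and, in an alternative, for voom weights.

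The 12088 genes that reached 1 CPM in 3 or more libraries were tested with limma 3.58.1 (R 4.3.3; lmFit, eBayes), without a block, on the deposited log2 values. Log2 fold changes understate changes of genes with few reads. A two-sided exact permutation test of 3 libraries against 3 cannot give a p under 0.1, which is the value of each gene whose groups do not overlap. Alternatives changed the pseudocount, filter, variance model, weights, scaling, block and threshold, and left out each library.

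The 10 genes and 14 marker lists were chosen with earlier results of these data known. Named were the 10 genes, *Nanog*, fixed partners and near copies, up to 3 genes per list with the smallest p-values, and the 5 genes most like *Irf8* and the 5 most like the mean of the 10. Names and positions came from the NCBIM37 annotation (12067 genes matched), with older symbols matched through RefSeq. Promoters are from RefSeq (GRCm38.p6). Shared sequence was searched in 36-base windows of the longest coding transcripts. Scripts used pandas 2.3.3, numpy 2.4.6 and, for figures, matplotlib 3.10.9 in Python 3.11.15.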

Additional observations from a re-analysis of the deposited data

How the results depend on the processing

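The number of the 10 genes lower with dox was 4 as reported. It was also 4 with log2(CPM + 1), without a filter, with a filter of 5 CPM, with voom weights, and with scaling by total reads or by the median of ratios, and 5 with a mean-variance trend or with the block and voom weights. It was 7 with array quality weights and with quantile scaling, 1 at an adjusted p under 0.01 and 7 at one under 0.1. The matching counts over all genes are not given here for quantile scaling or for those thresholds, so these member counts have no background beside them. Leaving out 1 library gave from 1 to 5, and no alternative gave a gene that was higher. Over all 12088 genes tested 384 were lower and 555 higher as reported, and 570 and 615 with voom weights. A mean-variance trend gave 747 lower and 909 higher, array quality weights 2601 and 2515, and leaving out 1 library from 36 to 1687 lower and from 92 to 1801 higher, the highest of both without dox-treated replicate 3. The median log2 fold change of the set was -2.26 under the filter of 5 CPM, which leaves out 4 of the less expressed genes, and from -1.80 to -1.15 with 1 library left out. Of the single-gene values under the alternatives, 139 kept their direction and side of the threshold, 12 lost the call, 9 gained it and 6 changed sign. The sign changed for *Lyz2* with array quality weights (0.0116), without dox-treated replicate 3 (0.15) and without untreated replicate 1 (0.11), and for *Cd68* with array quality weights (-0.0885), with quantile scaling (-0.25) and without untreated replicate 2 (-0.24), none of them past the threshold. With 1 library left out *Lyz2* ranged from -0.46 to 0.15 and *Cd68* from -0.24 to 0.23. Scaling by total reads moved the median of all genes from -0.03 to 0.08. The cause was not tested.

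Replicates carry the numbers 1 to 3 in both groups, but same-numbered libraries did not deviate together (correlations across genes of 0.02, -0.12 and -0.30), so the numbers are not taken as pairs. With the replicate block 2 of the 10 genes were lower (*Irf8*, adjusted p = 0.047, and *Ly6c2*, 0.032, limma), and *F13a1* (0.063) and *Mpeg1* (0.073) were not. Over all genes the block left 29 lower and 53 higher. A planned comparison of protein sequences was not run, and transcripts were compared in its place. *Ly86* had the fewest reads, 10 to 48 per library, but its standard error (0.33) was below those of *Lyz2* (0.38) and *Ccr2* (0.43), which had more.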

Other observations

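The genes whose log2 CPM followed *Irf8* most closely over the 6 libraries, among the 9986 genes outside the set that averaged 5 CPM or more, were *Brd8* (Pearson r 0.997), *Snx18* (0.994), *Cst7* (0.994), *Cebpe* (0.993) and *Trem3* (0.993). The libraries form 2 separate groups, so that r mostly holds the difference between the groups, and it is given as a description with no test. The sizes of the changes were unlike. *Brd8*, which encodes a bromodomain protein, went from 154.9 ± 3.69 to 140.1 ± 1.86 CPM (SD, n = 3 each) with dox, a log2 fold change of -0.14 that did not pass the test. *Cst7*, the gene of the leukocyte cysteine protease inhibitor cystatin F, went from 25.5 ± 10.7 to 6.33 ± 1.12 CPM (SD, n = 3 each; -1.93, adjusted p = 0.032, limma).

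Most like the mean of the 10 genes were *Klf2* (r 0.995), *Cd63* (0.991), *Palm* (0.989), *Vim* (0.989) and *Fcgr3* (0.987), none of which passed the test. *Vim*, the vimentin gene, had 39.2 ± 7.35 CPM with dox and 81.7 ± 30.9 CPM without (SD, n = 3 each), and *Klf2*, a zinc finger factor gene, had 8.46 ± 2.48 CPM and 17.5 ± 6.85 CPM.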
